A study of Mus musculus with 12 samples.

Results

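The glutamate and GABA receptor subunit genes were described in mouse oligodendrocyte progenitor cells (OPCs), the dividing glial cells that give rise to the myelinating cells of the brain. The genes described are those of the deposited table whose symbol names an AMPA, kainate, NMDA or metabotropic glutamate receptor subunit, or a GABA-A or GABA-B receptor subunit. A further 4 subunit genes are not reported here and are left out of every count of members. The genes described number 40 of 20540 genes. A member was taken as measured where it had at least 1 CPM (a gene's reads scaled to the size of its library) in at least 3 of the 12 libraries, and 28 members were.

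The cells came from the brain of C57BL/6 mice at postnatal day 6 to 7, were kept proliferating in SATO medium with a supplement labelled PDGFRA, and were transfected with a biotin-tagged mimic. A mimic is a short synthetic RNA that stands in for a mature microRNA, and its biotin tag lets RNA held with it be captured. The 4 groups, with 3 libraries each, were RNA from the miR-27a mimic pulldown, RNA from the control mimic pulldown, whole-cell RNA after the miR-27a mimic and whole-cell RNA after the control mimic. All groups thus carried a transfected biotin-tagged mimic, and no untransfected cells are among the groups. The labels do not say whether replicates were separate cultures, so each p-value reflects variation among these libraries that could be technical.

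Ionotropic glutamate receptors are cation channels built from several subunits, and the AMPA, kainate and NMDA families differ in their speed and calcium permeability. Metabotropic glutamate receptors signal through G proteins. GABA-A receptors are chloride channels that usually combine alpha, beta and gamma subunits, whereas the GABA-B receptor is a G protein-coupled pair of Gabbr1 and Gabbr2. OPCs are known to receive synaptic input from neurons and to carry AMPA and GABA-A receptors on their surface.

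Sequences are given for the microRNA and for matches to it in the 3′ untranslated regions (UTRs) of some of these genes. Such a match is no sign of binding. The labels name the mimic without an arm, and the 3p arm was used. Its mature sequence is printed from RefSeq (GRCm38.p6, chr8:84208727-84208747, plus strand), with the seed, bases 2 to 8, in capitals.
miR-27a-3p: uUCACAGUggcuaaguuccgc
The kinds of match to the seed that were searched, on the transcript strand only, were an 8mer (ACTGTGAA), a 7mer-m8 (ACTGTGA) and a 7mer-A1 (CTGTGAA), where a 7mer inside an 8mer was not counted again. The 5 measured members with an 8mer are shown because they hold the longest match, with the match in capitals. The windows lie in GRCm38 at chr7:88134278-88134306 (plus strand) for Grm5 and chr11:57328310-57328338 (plus) for Gria1. They lie at chr9:4419830-4419858 (minus) for Gria4, chr5:71571356-71571384 (minus) for Gabra4 and chr4:46663461-46663489 (minus) for Gabbr2.
Grm5: accatttacaattttatACTGTGAAaaaa
Gria1: tggttcatcagagagtaACTGTGAAgagc
Gria4: gccagttagcgcattaaACTGTGAAgttc
Gabra4: tgaaaaaaaaaagaaagACTGTGAAtttt
Gabbr2: atccaggatagctttccACTGTGAAgcag
Shorter matches were held by members that were called lower and by members called higher between mimics. Grik2 was lower after miR-27a in whole-cell RNA, Gabbr1 was higher in both RNAs, and Gria3 and Gabrb2 were higher in pulldown RNA. Their windows are chr10:49098509-49098537 (minus strand) for Grik2, chr17:37074297-37074325 (plus) for Gabbr1, chrX:41678089-41678117 (plus) for Gria3 and chr11:42628128-42628156 (plus) for Gabrb2. Grik3, which was lower in pulldown RNA, holds 3 matches of the 7mer-m8 kind and 2 of the 7mer-A1 kind, not printed.
Grik2 7mer-A1: taatattatggggaaattCTGTGAAtata
Gabbr1 7mer-A1: agcacctcatccactgtcCTGTGAActga
Gria3 7mer-m8: ttgttttgttttcatgaaACTGTGAtttt
Gabrb2 7mer-A1: tgaggctttgctgagaccCTGTGAActgg

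The libraries held 15548418 to 24972188 reads assigned to genes. Among the 3 pulldown libraries of the miR-27a mimic, replicate 2 stood furthest from its group: it was the highest of the 3 for 15 of the 28 measured members, and its median absolute deviation from the group mean was 0.132 on the log2 scale over the members and 0.12 over all measured genes, against 0.0414 to 0.0968 over all measured genes in the other 11 libraries. Markers of other cells were present. The summed level of 7 astrocyte markers was 3695 to 4128 CPM in the miR-27a pulldown, 5147 to 5289 CPM in the control pulldown, 6604 to 6663 CPM in whole-cell RNA after miR-27a and 7834 to 7857 CPM after the control mimic. In the same order, the sum of 8 OPC markers was 3617 to 4006, 3183 to 3237, 1686 to 1743 and 1619 to 1655 CPM, and that of 6 oligodendrocyte markers 3733 to 4766, 5088 to 5687, 10568 to 10953 and 11100 to 11596 CPM. The sum of 10 neuronal markers was 151.1 to 170.5, 134.9 to 147.3, 212.5 to 238.8 and 167.3 to 188.4 CPM, most of it Tubb3, with group means of 127, 91.2, 159 and 104 CPM. Snap25, Stmn2, Slc17a6, Syt1, Gad1 and Gad2 were also above 1 CPM in every group mean, while Rbfox3 and Slc17a7 were below 1 CPM in every library. The sum of 7 microglial markers was 15.15 to 24.99 CPM over the 12 libraries, with Aif1 below 1 CPM in each, and that of 6 mural and endothelial markers 35.93 to 71.94 CPM, with Cldn5 below 1 CPM in each. In bulk whole-cell RNA, fewer cells of a type and less RNA per cell cannot be told apart. The pulldown libraries hold captured RNA, so their marker sums are not a measure of the cells present.

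Levels were compared between genes after division by the exon length of the gene. Gria2, which encodes the GluA2 subunit that keeps calcium out of AMPA channels when its transcript is edited, made up 55.6% ± 0.54 of the AMPA subunits per kilobase in whole-cell RNA after the control mimic (SD, n = 3). There, Gria2 stood at 33.6 CPM per kilobase, Gria4 at 21.8, Gria3 at 3.18 and Gria1 at 1.89. The order of these 4 genes was the same in all 4 groups. The library values of Gria2 spread most in the miR-27a pulldown, from 313.2 to 534.3 CPM.

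The kainate class was led by Grik3, with 55.1% ± 1.6 of the class per kilobase in control whole-cell RNA. Grik3 and Grik2 encode subunits that can form channels on their own, whereas Grik4 and Grik5 encode subunits that need such a partner. Their levels were 14.6 CPM per kilobase for Grik3, 4.68 for Grik2, 4.27 for Grik4, 2.69 for Grik5 and 0.25 for Grik1. Grik2 and Grik4 were neighbours in this order by a small margin. In both pulldown groups Grik4 stood above Grik2, at 5.52 against 4.64 CPM per kilobase after miR-27a and 7.04 against 4.29 after the control mimic. Their order depends on the length used. With the longest coding transcript, Grik2 held 18.4% and Grik4 15.8% of the class in the miR-27a pulldown. By that length they held 14.8% and 17.4% in the control pulldown, and 22.2% and 14.6% in control whole-cell RNA.

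Among NMDA subunits, Grin3a led with 55.8% ± 6 of the class in control whole-cell RNA. Grin3a encodes the glycine-binding GluN3A, which lowers the calcium permeability of the channel, and Grin1 encodes the subunit that every NMDA receptor requires. In control whole-cell RNA Grin3a stood at 1.31 CPM per kilobase, Grin1 at 0.585, Grin2c at 0.33, Grin2a at 0.0583 and Grin2b at 0.057. Grin2a and Grin2b, glutamate-binding subunits, lay near the limit of 1 CPM in CPM units, at 0.71 to 1.8 and 0.866 to 1.79 CPM over the 12 libraries, and their values did not separate any of the groups. Grin1 shares 1307 bases of exon with Grin1os on the opposite strand. No source used here gives the strand setting of the authors' counting, so reads of such pairs may be shared.

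Of the metabotropic receptors described, Grm5 stood highest in control whole-cell RNA. It encodes mGluR5, which couples to phospholipase C, while the products of Grm3, Grm7 and Grm8 couple to inhibitory G proteins. Levels there were 21.5 CPM per kilobase for Grm5, 10.7 for Grm7, 6.77 for Grm3 and 0.195 for Grm8. Grm3 was nearly level over the study, at 18.5 to 22.2 CPM in all 12 libraries. The order of Grm7 and Grm3 differed with the RNA: Grm7 stood at 2.61 and Grm3 at 6.76 CPM per kilobase in the miR-27a pulldown, and at 4.51 and 6.65 in the control pulldown.

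Of the GABA-A subunits described, Gabrg1 (gamma 1) stood highest in control whole-cell RNA, at 18.2 CPM per kilobase. The alpha subunits, which contribute to the GABA-binding site, were lower: Gabra4 stood at 2.35, Gabra5 at 1.74, Gabra3 at 1.25 and Gabra2 at 0.4 CPM per kilobase. Gabrb2 had 1.91, Gabrb1 1.11 and Gabrg3 0.0962 CPM per kilobase. Within this order the SDs of Gabrb2 and Gabra5 overlapped, as did those of Gabra3 and Gabrb1, so these neighbours did not differ beyond their spread. In the pulldown groups, Gabra3 was the highest of the alpha subunits, at 2.88 CPM per kilobase after miR-27a and 2.37 after the control mimic. Gabbr1, which binds GABA, made up 94.9% ± 0.62 of the 2 GABA-B subunits, with 16.4 CPM per kilobase against 0.875 for Gabbr2, the subunit that carries the receptor to the surface and couples it to G proteins.

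**Figure D1:**
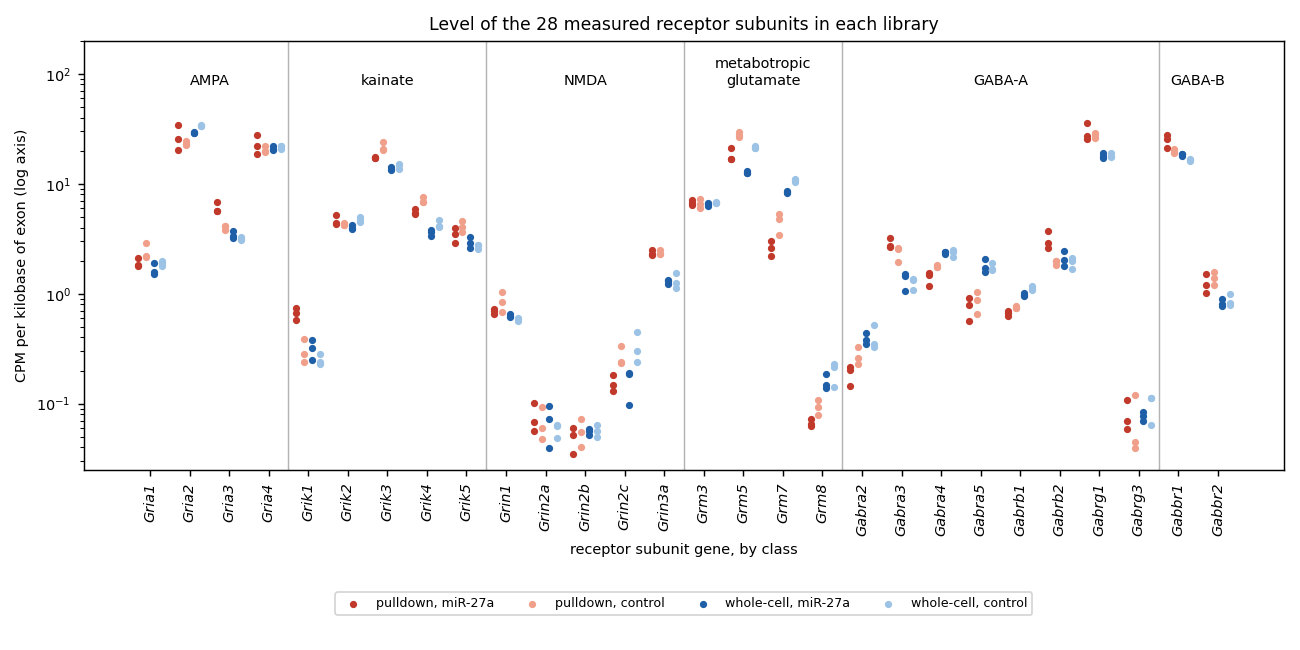
Level of each measured subunit in CPM per kilobase of exon (log axis), with 1 point per library, 3 libraries per group, coloured by group. Of the subunits described, Gria2, Grik3, Grin3a, Grm5, Gabrg1 and Gabbr1 stand highest in their classes in whole-cell RNA after the control mimic. Grm7 lies lower in both pulldown groups than in whole-cell RNA.

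The 12 members below the limit were Grin2d and Grin3b among NMDA subunits, Grm2, Grm4 and Grm6 among metabotropic receptors, and Gabra6, Gabrd, Gabre, Gabrq, Gabrr1, Gabrr2 and Gabrr3 among GABA-A subunits. They are named as not measured. None reached 1 CPM in any library, with a highest value of 0.967 CPM for Gabrq in replicate 2 of the miR-27a pulldown. Their reads summed to between 1 and 108 over the 12 libraries. A count of 0 in a library allows up to 0.116 to 0.2 CPM there, the value of 3 reads, which covers counting error only. Of the subunits described, all those of the AMPA, kainate and GABA-B classes were measured. So were 5 of 7 NMDA, 4 of 7 metabotropic and 8 of 15 GABA-A subunits. By the same limit 70% of the members and 67.6% of all genes were measured.

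GABA-A subunit genes sit in clusters, and neighbours in a cluster differed in level. On chromosome 5 (GRCm38, 70751047 to 72149037, 1.4 Mb), control whole-cell RNA held 18.2 CPM per kilobase of Gabrg1, 0.4 of Gabra2, 2.35 of Gabra4 and 1.11 of Gabrb1. On the X chromosome (72255999 to 72842602, 0.587 Mb) Gabra3 was measured, and its neighbours Gabre and Gabrq were not. Gabra4 and Gabrb1 lie on opposite strands and share 46 bases of exon.

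The first comparison asked how the miR-27a mimic changed receptor subunit RNA in whole cells, over 3 against 3 libraries. Grm5 changed most in proportion to its error and was lower. The AMPA subunit Gria2, the kainate subunits Grik2 and Grik4, the NMDA subunit Grin2c and the metabotropic receptor Grm7 also fell, while the GABA-B subunit Gabbr1 rose. By limma with Benjamini-Hochberg adjustment over all genes tested, 7 of 28 members tested passed the threshold of 0.05, 1 higher and 6 lower, a share of 25.0%, where 24.9% of all 13393 genes tested passed (13.0% higher and 11.9% lower). The share of members called was thus near that of the table and is not a result about these genes as a set. It includes Grin2c, which had no miR-27a library at 1 CPM and was tested only through the control group. The median change of the members was -0.04, and that of all genes 0.01, on the log2(CPM + 1) scale used for every change here, which understates the change of genes of low level.

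Of the metabotropic receptors, Grm5 had 128.1, 133.1 and 127.3 CPM in whole-cell RNA after miR-27a, against 227.8, 218.1 and 215.4 CPM after the control mimic. The 2 groups were far apart and did not overlap. The log2 change was -0.76 ± 0.04 (standard error; limma adjusted p = 9.18e-13). Grm7 had 50.5, 48.6 and 49.2 CPM after miR-27a, against 63.8, 64.4 and 60.9 CPM after the control mimic. Every miR-27a library lay below every control library for Grm7 as well, with a change of -0.34 ± 0.05 (limma adjusted p = 1.26e-05). Grm3 and Grm8 did not pass the threshold, with changes of -0.05 and -0.19.

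Among AMPA subunits, Gria2 had 452.6, 462.6 and 450.9 CPM after miR-27a, against 528.8, 517.4 and 519.6 CPM after the control mimic. The difference was small, but larger than the spread within either group, and the change was -0.20 ± 0.03 (limma adjusted p = 4.78e-05). The other AMPA subunits had changes of -0.18 (Gria1), 0.10 (Gria3) and -0.05 (Gria4), none past the threshold. Of the kainate subunits, Grik2 had 56.4, 51.9 and 52.1 CPM after miR-27a, against 65.4, 59.1 and 61.5 CPM after the control mimic, a change of -0.21 ± 0.05 (limma adjusted p = 0.00493). Grik4 had 22.7, 20.1 and 21.6 CPM after miR-27a, against 23.9, 24.6 and 27.8 CPM after the control mimic. Neither gene's groups overlapped, and the margin was narrow for Grik4, whose change was -0.24 ± 0.07 (limma adjusted p = 0.0231). The Grik4 call was lost without replicate 2 or 3 of the miR-27a libraries or replicate 3 of the control libraries (adjusted p 0.105, 0.061 and 0.149) and with no filter on low values (0.0589).

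Grin2c, the only NMDA subunit called, had 0.485, 0.947 and 0.957 CPM after miR-27a, against 1.53, 2.25 and 1.2 CPM after the control mimic. It passed the filter on low values only through the control group, where it is high, so a difference was built into its being tested. Its change was -0.56 ± 0.17 (limma adjusted p = 0.0201), and without replicate 1 of the whole-cell miR-27a libraries it was -0.43, with an adjusted p of 0.123. Grin3a, the leading NMDA subunit, had 16.5, 15.2 and 16.1 CPM after miR-27a, against 19.1, 13.7 and 15.5 CPM after the control mimic. Those 2 groups overlapped fully, and the limma adjusted p was 0.989.

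None of the 8 GABA-A subunits tested passed. Gabrg1 had 140.3, 148.6 and 134.8 CPM after miR-27a, against 140.9, 149.3 and 138.9 CPM after the control mimic. These values overlapped, with a change of -0.02 ± 0.04 (limma adjusted p = 0.793). The other 7 had changes between -0.17 for Gabrb1 and 0.12 for Gabrb2. Of the GABA-B subunits, Gabbr1 had 145, 138.5 and 144.3 CPM after miR-27a, against 127.8, 130.5 and 124.7 CPM after the control mimic, and rose by 0.16 ± 0.04 (limma adjusted p = 0.00415), while Gabbr2 had a change of -0.07. In the same comparison 6 of 7 astrocyte markers, 3 of 6 oligodendrocyte markers and 1 of 8 OPC markers fell, and 4 OPC markers rose. Of 7 neuronal markers tested, Tubb3 rose (0.61) and Snap25 fell (-0.40). Of 4 mural and endothelial markers, Acta2 (-1.51), which had the smallest p of all markers tested, and Pdgfrb (-0.31) fell and Kdr rose (0.54), and of 6 microglial markers C1qa fell (-0.39). The part of these shifts in the receptor changes was not tested.

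Fitting the same contrast with the spread of all 12 libraries left 2 calls, Grm5 and Grin2c, and in that fit too Grin2c had no library at 1 CPM in either miR-27a group and passed the filter through the control groups, where it is high. The log2 changes were the same, and the adjusted p of the 5 others was between 0.0756 and 0.339. The pulldown libraries, whose replicates spread more, enter the error of that fit.

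The second comparison set the miR-27a pulldown against the control pulldown. Grm5, Grm7 and Grik4 were again lower and Gabbr1 higher. The kainate subunit Grik3 also fell, and Gria3, Grik1 and Gabrb2 rose. By limma, 8 of 26 members tested passed, 4 higher and 4 lower, a share of 30.8%, where 13.1% of the 13586 genes tested passed (6.05% higher and 7.06% lower). The median absolute change was 0.25 for the members and 0.15 for all genes tested, given as a description with no test. Gabrg3 and Grm8 did not pass the filter on low values and were not tested here. Leaving out 1 library at a time gave between 5 and 8 calls: 5 without replicate 3 of the miR-27a pulldown or without replicate 1 or 3 of the control pulldown, 6 without replicate 2 of the control pulldown, and 8 without replicate 1 or 2 of the miR-27a pulldown.

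Grm5 had 172.1, 214.5 and 173.3 CPM in the miR-27a pulldown, against 270.6, 301.1 and 282.4 CPM in the control pulldown. Replicate 2 was the highest in each group, and the groups did not overlap. The change was -0.61 ± 0.09 (limma adjusted p = 0.00046). Grm7 had 13.1, 15.2 and 17.7 CPM in the miR-27a pulldown, against 31, 20.3 and 28.3 CPM in the control pulldown. Its lowest control value still lay above its highest miR-27a value, with a change of -0.74 ± 0.15 (limma adjusted p = 0.00322).

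Of the AMPA subunits, Gria3 had 55.5, 66.9 and 56.2 CPM in the miR-27a pulldown, against 40.9, 40.4 and 37.6 CPM in the control pulldown. It rose by 0.57 ± 0.10 (limma adjusted p = 0.001), with no overlap. In whole-cell RNA Gria3 had 32.7, 31.9 and 36.4 CPM after miR-27a, against 30.5, 32.5 and 31 CPM after the control mimic, and these groups overlapped. Gria2 had 313.2, 534.3 and 400 CPM in the miR-27a pulldown, against 349.7, 377.5 and 356.2 CPM in the control pulldown. The miR-27a values lay on both sides of the control values, with a change of 0.17 ± 0.14 (limma adjusted p = 0.469). Without replicate 1 of the miR-27a pulldown the Gria2 change was 0.36, with an adjusted p of 0.0131. Gria1 and Gria4 had changes of -0.31 and 0.14 and did not pass.

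The kainate subunits changed in both directions in the pulldown. Grik1 had 4.52, 5.01 and 3.91 CPM in the miR-27a pulldown, against 1.92, 2.62 and 1.62 CPM in the control pulldown, a rise of 0.85 ± 0.17 (limma adjusted p = 0.00344). In whole-cell RNA Grik1 had 1.67, 2.55 and 2.14 CPM after miR-27a, against 1.91, 1.6 and 1.53 CPM after the control mimic, with overlap. All of its miR-27a pulldown values stood above the values of the other 9 libraries. Grik3 had 158, 153.8 and 154.3 CPM in the miR-27a pulldown, against 184.3, 183.2 and 213 CPM in the control pulldown, a change of -0.31 ± 0.08 (limma adjusted p = 0.021). Its whole-cell values were 128.3, 119 and 123 CPM after miR-27a, against 122.3, 133.5 and 136.9 CPM after the control mimic, and these overlapped. Grik4 had 32, 31.6 and 35.1 CPM in the miR-27a pulldown, against 40.3, 40.6 and 45.1 CPM in the control pulldown, a change of -0.34 ± 0.09 (limma adjusted p = 0.0253). Neither gene overlapped between the pulldown groups. Leaving out replicate 3 of the miR-27a pulldown, or replicate 1 or 3 of the control pulldown, ended both calls (adjusted p 0.0503 to 0.178), and leaving out replicate 2 of the control pulldown ended that of Grik4 (0.0587). Grik2 had 57.2, 69.4 and 58 CPM in the miR-27a pulldown, against 55.3, 58.7 and 56.4 CPM in the control pulldown, and did not pass (change 0.11).

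Gabrb2, a GABA-A beta subunit, had 16.6, 23.6 and 18.3 CPM in the miR-27a pulldown, against 11.7, 12.7 and 12.6 CPM in the control pulldown. It rose by 0.61 ± 0.13 (limma adjusted p = 0.00514). Whole-cell values of Gabrb2 were 12.9, 15.4 and 11.4 CPM after miR-27a, against 13.3, 10.6 and 12.5 CPM after the control mimic, and did not separate the mimics. Gabbr1 had 215.4, 164.7 and 197.5 CPM in the miR-27a pulldown, against 161.2, 149.2 and 150.9 CPM in the control pulldown, a rise of 0.31 ± 0.10 (limma adjusted p = 0.0416). The Gabbr1 pulldown call was lost on leaving out any of 5 of the 6 libraries (limma adjusted p 0.0923 to 0.166), the exception being replicate 2 of the miR-27a pulldown, and with no filter on low values (0.102). Grin2c had 0.914, 0.659 and 0.745 CPM in the miR-27a pulldown, against 1.68, 1.2 and 1.19 CPM in the control pulldown, and did not pass (limma adjusted p = 0.187). In this comparison 5 of 6 oligodendrocyte markers and 5 of 7 astrocyte markers also fell, and 3 of 8 OPC markers rose. Acta2 (-1.65), Snap25 (-0.87), C1qa (-0.74) and Pdgfrb (-0.36) fell, and Kdr (0.63) and Tubb3 (0.47) rose, the only ones called among 8 neuronal, 6 microglial and 4 mural and endothelial markers tested. Their part in the receptor changes was not tested.

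**Figure D2:**
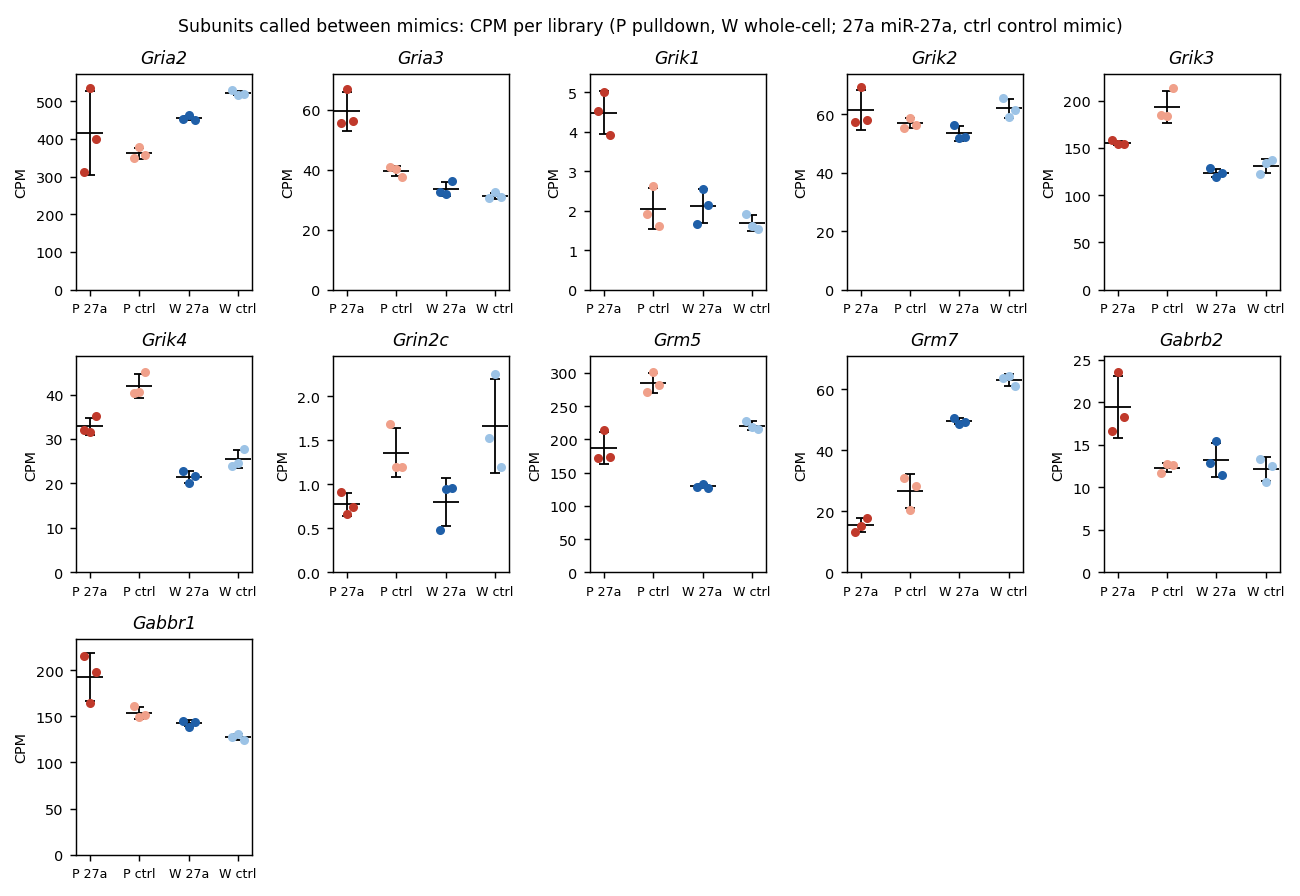
CPM of the 11 subunits called between mimics in either RNA, with 1 point per library, a horizontal bar at the mean and error bars of 1 SD (3 libraries per group). Grm5 and Grm7 lie lower after miR-27a in both RNAs, and Gria3, Grik1 and Gabrb2 lie higher after miR-27a among the pulldown libraries, while their whole-cell values overlap.

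Calls made in both RNAs went the same way for all 4 members concerned: Grm5, Grm7 and Grik4 were lower and Gabbr1 was higher. They were 57.1% of the members called in whole-cell RNA and 50% of those called in pulldown RNA, over the 26 members tested in both. Over all genes tested in both, the shares were 34.5% and 65%. Of the 1162 genes called in both, 1144 went the same way, so this agreement is not particular to the members. The Grik4 and Gabbr1 calls were lost under some alternatives in both RNAs. The 2 comparisons have no library in common.

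**Figure D3:**
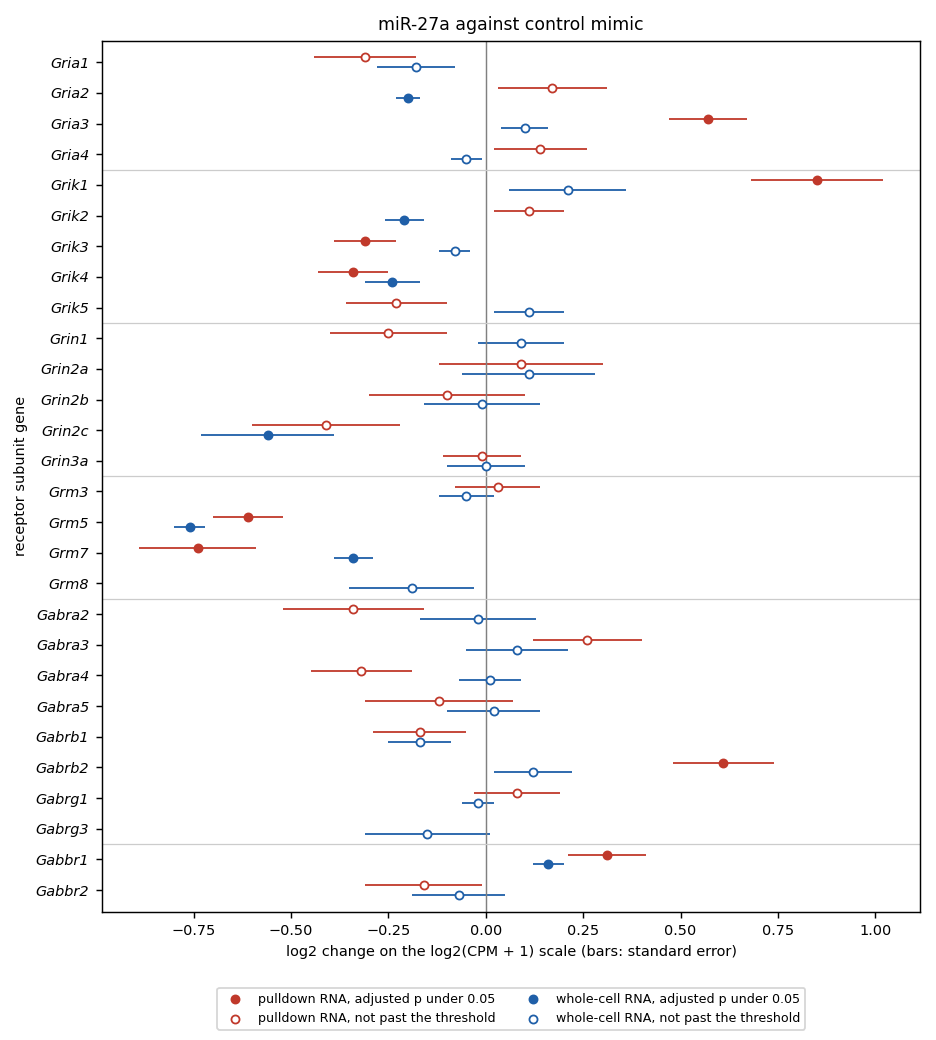
Log2 change of each measured subunit for miR-27a against control mimic, in pulldown RNA (red) and whole-cell RNA (blue), with standard errors; filled points passed the threshold. Grm5, Grm7, Grik4 and Gabbr1 carry filled points in both RNAs, all 4 on the same side of 0 in both.

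The third pair of comparisons set each mimic's pulldown against its whole-cell RNA, from the fit of all 12 libraries. Grm7, Gabra5 and Gabra4 were lower in the pulldown under both mimics, and Gabra3, Grin3a, Gabrg1 and Grik4 were higher. Under the miR-27a mimic 18 of 28 members passed, 12 higher and 6 lower in the pulldown, a share of 64.3%, where 60.2% of the 13875 genes tested passed (29.3% higher and 30.9% lower). Under the control mimic 19 of 28 passed, 12 higher and 7 lower, a share of 67.9%, where 62.0% of genes passed (31.7% higher and 30.3% lower). Both shares lie near those of the table. Of the members called under each mimic, 15 were called under both in the same direction, 9 higher and 6 lower, which is 83.3% of those under miR-27a and 78.9% of those under the control mimic. Over all genes tested the shared calls were 82.9% of those under miR-27a and 80.5% of those under the control mimic. The 6 members lower under both mimics include Grm8, which had no miR-27a pulldown library at 1 CPM. Grm8 passed the filter through whole-cell RNA, where it is high. They also include Gabra2, whose call under the control mimic was lost under 8 of 12 alternatives.

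Under both mimics, Grm7 fell furthest of the members called, by the per-library values given above. The change was -1.63 ± 0.12 under miR-27a (limma adjusted p = 2.11e-09) and -1.24 ± 0.12 under the control mimic (adjusted p = 6.95e-08). Grm5, of the same class, was higher in the pulldown, by 0.52 under miR-27a and 0.37 under the control mimic, both past the threshold. Grm8 was lower by both contrasts, with changes of -0.62 and -0.60. It had no library at 1 CPM in the miR-27a pulldown, and 0.779, 0.926 and 1.06 CPM in the control pulldown. Its whole-cell libraries held 1.36 to 2.27 CPM. Grm8 thus passed the filter through whole-cell RNA, where it is high, so a fall was built into its being tested in both contrasts. Grm3 passed under neither mimic.

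Gabra5, an alpha subunit known for extrasynaptic receptors in hippocampal neurons, had 2.36, 2.73 and 1.68 CPM in the miR-27a pulldown, against 6.09, 4.68 and 5.06 CPM in whole-cell RNA. It had 2.58, 1.93 and 3.1 CPM in the control pulldown, against 4.97, 4.91 and 5.61 CPM in whole-cell RNA. Under both mimics every pulldown value lay below every whole-cell value, with changes of -0.96 ± 0.15 (limma adjusted p = 3.24e-05) and -0.81 ± 0.15 (adjusted p = 0.00016). Gabra3 went the other way, with 10.5, 12.7 and 10.6 CPM in the miR-27a pulldown, against 5.98, 5.68 and 4.16 CPM in whole-cell RNA. It had 10.1, 7.6 and 10.2 CPM in the control pulldown, against 5.23, 4.2 and 5.34 CPM in whole-cell RNA. No overlap was seen, and Gabra3 rose by 0.98 ± 0.14 under miR-27a (limma adjusted p = 9.28e-06) and by 0.79 ± 0.14 under the control mimic (adjusted p = 8.39e-05).

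Gabrg1 had 201, 278.5 and 213.1 CPM in the miR-27a pulldown, against the 134.8 to 148.6 CPM of whole-cell RNA given above. Its control pulldown held 226.4, 218.1 and 205.5 CPM, against 138.9 to 149.3 CPM in whole-cell RNA. The rises were 0.69 ± 0.09 and 0.60 ± 0.09 (limma adjusted p = 2.44e-06 and 1.27e-05). Its 3 neighbours on chromosome 5, Gabra2, Gabra4 and Gabrb1, were lower in the pulldown under both mimics, at -0.71, -0.70 and -0.52 under miR-27a and -0.39, -0.37 and -0.52 under the control mimic. The Gabra2 call under the control mimic (limma adjusted p = 0.0446) was lost under 8 of 12 alternatives, among them leaving out replicate 1 or 3 of the control pulldown or replicate 3 of the control whole-cell libraries (adjusted p 0.094, 0.147 and 0.26).

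Grin3a had 30.8, 27.6 and 28.3 CPM in the miR-27a pulldown and 28.2, 28 and 30.9 CPM in the control pulldown, both well above the 13.7 to 19.1 CPM of the 6 whole-cell libraries. The change was 0.82 ± 0.10 under each mimic (limma adjusted p = 1.39e-06 under miR-27a and 1.25e-06 under the control mimic). Grin1 rose by 0.45 under the control mimic, and its change under miR-27a, 0.12, did not pass. Of the 5 kainate subunits, 2 were higher in the pulldown under both mimics: Grik3 by 0.33 and 0.56 and Grik4 by 0.60 and 0.70, under miR-27a and the control mimic in that order. Grik1 (0.82) and Grik2 (0.19) rose under miR-27a, while their changes under the control mimic, 0.18 and -0.12, did not pass (limma adjusted p = 0.334 and 0.168). Grik5 rose by 0.57 under the control mimic, and its change under miR-27a, 0.23, did not pass (adjusted p = 0.0856). Gria3 rose by 0.80 and 0.33, Gria1 by 0.32 under the control mimic, and Gria2 fell by 0.53 under the control mimic, with -0.16 under miR-27a. The Gria1 call was lost without replicate 1 of the control pulldown (adjusted p 0.18) or replicate 2 or 3 of the control whole-cell libraries (0.0835 and 0.0574). The Grik2 call was lost without replicate 2 of the miR-27a pulldown (0.176) or replicate 2 or 3 of the whole-cell miR-27a libraries (0.106 and 0.102). Without replicate 2 of the miR-27a pulldown the Gria2 change under miR-27a was -0.36, past the threshold. Gabbr1 rose by 0.42 and 0.27 and Gabbr2 by 0.50 and 0.59. Gabrb2 rose by 0.52 under miR-27a, while its change under the control mimic, 0.03, did not pass.

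In these contrasts 7 of 8 OPC markers were higher in the pulldown under each mimic, 6 of 6 oligodendrocyte markers were lower under each, and 5 of 7 astrocyte markers were lower under each. Of 8 neuronal markers tested, 5 were lower under miR-27a and 4 under the control mimic. Under the control mimic 1 astrocyte marker and 1 neuronal marker were higher. Of 5 mural and endothelial markers tested, 2 were higher and 2 lower under each mimic. Of 6 microglial markers, 1 was higher and 2 lower under miR-27a, and 1 was higher and 0 lower under the control mimic. Their part in the receptor changes was not tested.

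**Figure D4:**
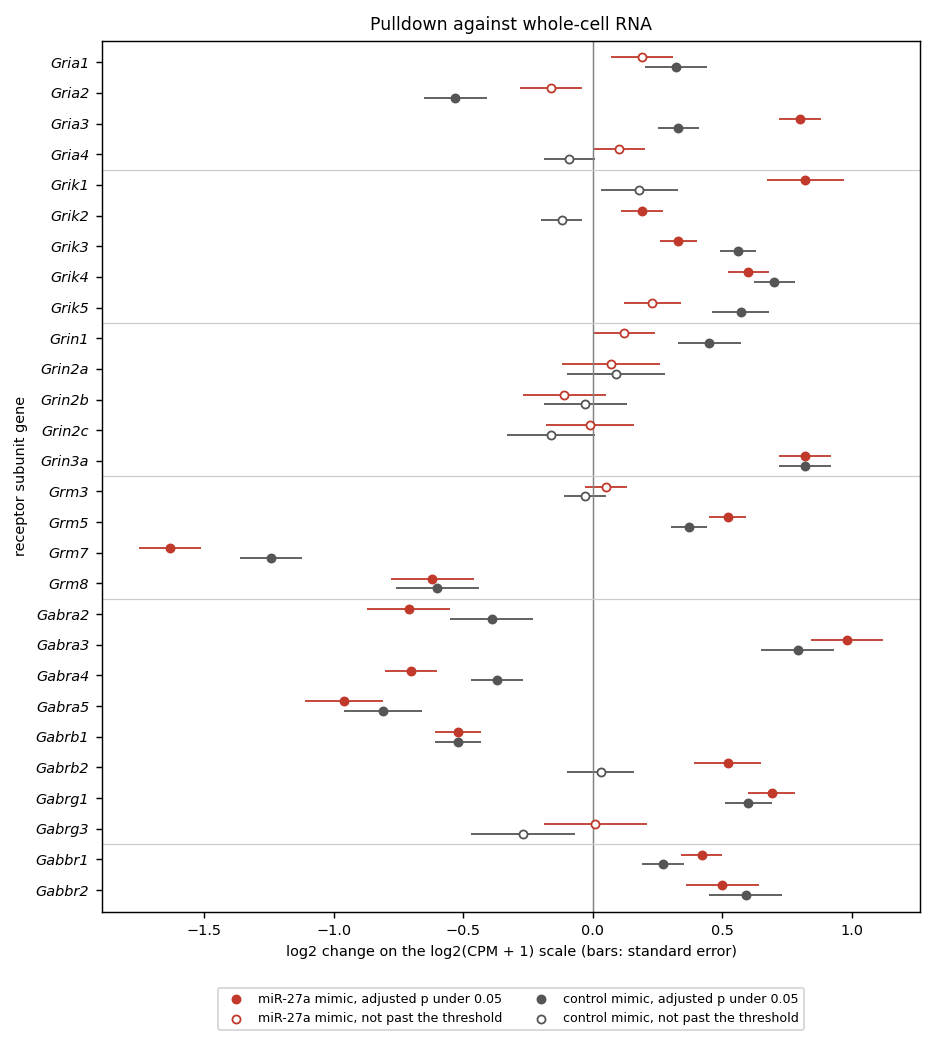
Log2 change of each measured subunit for pulldown against whole-cell RNA under the miR-27a mimic (red) and the control mimic (grey), with standard errors; filled points passed the threshold. Grm7 lies furthest to the left under both mimics, and Gabra3 and Grin3a lie among the furthest to the right.

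Whether pulldown against whole-cell RNA differed between mimics was tested as a difference of the 2 contrasts, which is also the difference between the mimic's change in pulldown RNA and in whole-cell RNA. No member passed by limma (0 of 28), where 1.07% of the 13875 genes tested did (0.339% higher and 0.735% lower). At an unadjusted p under 0.05 there were 9 members, 32.1%, against 13.0% of all genes tested, and limma voom on recovered reads also called 0. Gria3 came nearest, with a difference of 0.47 ± 0.11 (limma adjusted p = 0.053). Scaling by the median of ratios gave 0.49 with an adjusted p of 0.045. Grik1 had a difference of 0.64 ± 0.22 (adjusted p = 0.188), Gabrb2 0.49 ± 0.18 (0.217), Grik2 0.32 ± 0.11 (0.185) and Grm7 -0.39 ± 0.17 (0.316). The calls of Gria3, Grik1, Gabrb2 and Grik3 in pulldown RNA alone are therefore not shown to differ from their whole-cell changes. Leaving out replicate 2 of the miR-27a pulldown gave 2 calls (Gria3 and Gabbr1), and leaving out its replicate 1 gave 2 (Gria2 and Gria3). Without replicate 2 of the control pulldown there was 1 (Grm7). The shares of all genes called in these fits are not given, so these counts are not a result about the members as a set.

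An 8mer in the longest annotated 3′ UTR was held by 5 of the 28 measured members, 17.9%, and by 6.8% of the 11708 genes with a 3′ UTR at 1 CPM in 3 libraries. Either an 8mer or a 7mer was held by 57.1% of the measured members and 30.4% of those genes. The members' 3′ UTRs were longer, with a median of 2371 bases against 1268 bases. Among 3′ UTRs of 2000 to 3000 bases, 3 of 8 members held an 8mer, 37.5%, against 9.23% of 1756 genes. These are counts of letters in these windows, with no test, and are no sign of binding.

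Of the 5 measured members with an 8mer, Grm5 alone was called lower in whole-cell RNA, and Grm5 alone in pulldown RNA. The whole-cell changes of the other 4 were -0.18 for Gria1, -0.05 for Gria4, 0.01 for Gabra4 and -0.07 for Gabbr2. Over all genes with an 8mer, 32.4% of the 771 tested were lower in whole-cell RNA, against 9.22% of the genes with no 8mer or 7mer. In pulldown RNA, 17.5% of the 787 tested with an 8mer were lower, against 5.85% of those with neither. Grm5 holds its 8mer at base 3426 of a 3′ UTR of 4038 bases. Grik2, also lower, holds a 7mer, as does Gabbr1, which was higher. Gabrb1, with 5 matches of the 7mer-m8 kind, the most of that kind among measured members, was not called (-0.17). Of the 16 measured members with an 8mer or 7mer, 12.5% were lower in whole-cell RNA, against 33.3% of the 12 with neither. Over all genes tested the order was the opposite, 19.9% with an 8mer or 7mer against 9.22% with neither. The member shares rest on 2 and 4 genes, with no test. Grin2c, 1 of those 4, was tested only through the control group, where it is high. Gria2, Grm7, Grik4 and Grin2c, which were also lower in whole-cell RNA, hold none of the 3 matches in their longest annotated 3′ UTR, of 7268, 1163, 2694 and 402 bases. In the difference between mimics, which is positive where pulldown over whole-cell RNA is higher under miR-27a, the 5 members with an 8mer had values of -0.13 (Gria1), 0.19 (Gria4), 0.15 (Grm5), -0.33 (Gabra4) and -0.09 (Gabbr2), none past the threshold.

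A list of 78 genes that work with these receptors was also followed: auxiliary subunits, scaffolds, transporters, chloride cotransporters and enzymes of glutamate and GABA metabolism. In whole-cell RNA, 7 of the 66 tested were higher and 13 lower after miR-27a, together 30.3%, where 24.9% of all genes tested passed. The 4 of smallest p were Neto2, an auxiliary subunit of kainate receptors (-0.76 ± 0.04), Slc1a2, the main glial glutamate transporter (-0.49 ± 0.03), Glul, glutamine synthetase (0.32 ± 0.03), and Cnih3, an AMPA receptor auxiliary protein (-0.71 ± 0.07), with limma adjusted p between 1.35e-11 and 1.47e-07. In pulldown RNA, 3 of 69 were higher and 7 lower, together 14.5%, where 13.1% of all genes passed. Both shares lie near those of the table, and the counts by group that follow are descriptions with no test. Slc1a2 (-0.76), Cnih3 (-0.86) and Neto2 (-0.56) had the smallest p there. By group, 1 glutamate transport gene rose and 3 fell among the 6 tested in whole-cell RNA, 2 of 12 AMPA auxiliary genes fell, and 2 of 14 glutamate receptor scaffold genes rose with none lower. Of GABA receptor partners 2 rose and 3 fell among 14, of GABA transporters 1 rose and none fell among 2, and of transmitter enzymes 1 rose and 3 fell among 10. A fall was also called for 1 of 2 kainate auxiliary genes and 1 of 2 delta receptor genes, and none of 3 AMPA editing enzymes and 1 chloride cotransporter tested passed. Slc1a2 is also one of the astrocyte markers.

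Between pulldown and whole-cell RNA, 23 of 69 partner genes were higher and 23 lower under miR-27a, together 66.7% against 60.2% of all genes, and 26 were higher and 21 lower under the control mimic, 68.1% against 62.0%. Of 12 AMPA auxiliary genes, 8 were higher and 1 lower under miR-27a, and 7 were higher and none lower under the control mimic, where 29.3% and 31.7% of all genes were higher. Of 10 transmitter enzymes, 7 were lower and none higher under each mimic, where 30.9% and 30.3% of all genes were lower. These counts are given with no test. Abat, which breaks down GABA, had changes of -1.11 and -1.05, and Nsg1, an endosomal protein involved in AMPA receptor trafficking, 0.84 and 0.82, under miR-27a and the control mimic in that order. Dlg1 (-0.72) and Glul (-0.67) completed the 4 of smallest p under miR-27a, and Cacng7 (0.92) and Slc1a1 (0.52) those under the control mimic. In the difference between mimics none of the 69 passed, and the 4 of smallest p were Homer3, Neto1, Cacng7 and Slc1a2, with limma adjusted p between 0.0641 and 0.162.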

How the data were processed

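RNA from 12 libraries was measured by sequencing. Per the series' design text, the authors used a stranded TruSeq kit with ribosomal and globin depletion, trimmed reads with skewer, aligned them with HISAT2 to GRCm38, sorted them with SAMtools, counted them with featureCounts of Subread and normalised with edgeR. The submitters' processing notes also name mm8, with no role, and no source used here gives tool versions. The authors deposited log2 CPM with a prior of 0.25 reads; 100% of the values gave whole reads within 0.01 reads, from which CPM was rebuilt. Their library sizes implied scaling factors of 0.961 to 1.055. Tests used limma 3.58.1 (R 4.3.3) with an empirical Bayes trend on log2(CPM + 1), two-sided, with Benjamini-Hochberg adjustment over all genes that reached 1 CPM in 3 or more libraries entering the fit, at a threshold of 0.05. Mimics were compared over 6 libraries each; other contrasts used all 12. The procedure was run on simulated data with the same spread in all libraries. That run does not cover the wider spread of the pulldown libraries. Exon lengths and 3′ UTRs came from GENCODE M21, matched by symbol for all 40 members; microRNA sequences came from RefSeq. Groups and replicate numbers came from titles. Same-numbered miR-27a and control pulldown libraries deviated together (correlations 0.13, 0.27 and 0.11), so these numbers may mark pairs. The pulldown changes, standard errors and p-values printed here come from the fit without pairs. With the replicate block, run as an alternative, the pulldown comparison again called 8 members. Values in every library were given for members called between mimics, the 3 largest calls of each pulldown contrast and the leading member of each class. A further 4 subunit genes and 1 partner gene are not reported here; they stayed in the fits over all genes and are in no count of members or partners. Members and lists were chosen with earlier results of these data known. Alternatives were other scaling, pseudocount, filter, test, libraries in the fit and each library left out. Tables used Python 3.11.15, pandas 2.3.3 and numpy 2.4.6, and plots matplotlib 3.10.9.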

Additional observations from a re-analysis of the deposited data

How the results depend on the processing

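Of 52 member changes past the threshold, 40 stayed past it under every alternative run, and no change called in any comparison turned its direction. The members called between mimics in whole-cell RNA numbered 2 with all 12 libraries in 1 fit and 5 to 7 with 1 library left out, against 7. In pulldown RNA they numbered 5 to 8 with 1 library left out, against 8. Between pulldown and whole-cell RNA they numbered 17 to 20 under miR-27a and 17 to 19 under the control mimic with 1 library left out, against 18 and 19. In the difference between mimics there were 0 to 2 with 1 library left out and 1 (Gria3) with median-of-ratios scaling, against 0. The cause was not tested. Counts of members called under alternatives, here and above, stand without the shares of all genes called in the same fits. They are therefore not a result about the members as a set. The replicate block gave 7, 8, 18, 18 and 0 calls for whole-cell, pulldown, miR-27a, control and difference comparisons; the 1 call lost was Gabra2 under the control mimic (adjusted p = 0.0545). Same-numbered whole-cell libraries had correlations of 0.0, -0.03 and -0.03 between mimics. Same-numbered pulldown and whole-cell libraries had 0.01, 0.16 and 0.13 under miR-27a, and -0.05, -0.1 and 0.01 under the control mimic. Apart from the replicate block, no change or p-value printed above used pairs. Shares per kilobase depend on the length used: with the longest coding transcript Gria2 held 60.2%, Grik3 49.2%, Grin3a 54.2% and Gabbr1 96% of their classes in control whole-cell RNA, a choice added after seeing the data. With 3 libraries a group, members near 1 CPM rest on few reads.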
